A study of Mus musculus with 3 samples.

Results

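The immediate early and AP-1 genes described here are Fos, Fosb, Jun, Junb, Egr1, Ier2, Ier3, Dusp1, Atf3 and Nr4a1. They were chosen by name, and every non-control array spot assigned to them by gene name, accession or synonym was taken. That gave 10 genes with 12 probes and 30 spots on each array, of 43379 non-control spots in all. RNA of mouse embryonic stem (ES) cells was measured on 3 Agilent 1-colour arrays, each carrying the Cy3-labelled RNA of 1 sample. Of these samples, 2 are labelled Tet1 KO (numbers 4 and 22, here KO 4 and KO 22) and 1 is labelled Tet1 WT (here wild type). Tet1 encodes an enzyme that oxidises 5-methylcytosine in DNA. All 3 samples carry the same cell line label, V6.5, with a mixed 129 and C57BL6 background, and no treatment is named. Feeder cells that had been irradiated and medium with LIF (leukaemia inhibitory factor) were used for all of them, and preplating preceded the RNA preparation. Neither the origin of the knockout samples (clones, cultures) nor the making of the allele is named in the labels, and mice are mentioned in the design text. A p-value here thus reflects no more than spread between KO 4 and KO 22, possibly technical in origin. Much of the spread used is borrowed from the other genes tested. Wild type has no replicate, so its own spread was not measured.

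Immediate early genes are transcribed within minutes of a growth factor, serum, adhesion or stress signal, without new protein synthesis. ERK and other MAP kinases phosphorylate transcription factors already bound to DNA, among them the ternary complex factors with SRF at serum response elements, and CREB and ATF proteins at cAMP response elements (CRE). Fos and Jun family proteins then pair through leucine zippers to form AP-1, which binds the TPA response element and drives a later set of genes. Negative feedback is fast, through unstable messengers and through phosphatases such as DUSP1 that turn the kinases off. In mouse ES cells ERK activity promotes exit from self-renewal.

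The promoters of the members are shown because they can carry elements through which these genes are switched on. RefSeq promoter sequences (GRCm38.p6) were found for 8 of the 10 members, all but Egr1 and Ier2. The windows searched run from 250 bases before the annotated start to 50 after it, on both strands. The letters TGACG, the core of a CRE, were present in 6 of the 8 windows (Fos, Fosb, Junb, Dusp1, Atf3 and Nr4a1) and in 20.8% of all 32851 promoter windows of this length. The whole palindrome TGACGTCA, which contains that core on both strands, was found in Dusp1 only, 143 bases before the start, and in 1.79% of all windows. Jun held TGACATCA 45 bases before its start (3.62% of all windows) and TTACCTCA 164 bases before it (0.889%), the letters known as its proximal and distal AP-1-like sites. The plain AP-1 letters TGAGTCA or TGACTCA were in 0 of the 8 windows and in 5.20% of all, and the CArG box of SRF in 0 of the 8 and in 1.63% of all. This box was searched only in its strict form: CC, 6 letters of A or T, and GG. A box with other letters, or further than 250 bases before the start, would not have been found, and Egr1 and Ier2 were not searched. TATAAA was present in Fos, 33 bases before the start, and in Junb at the annotated start itself, against 13.6% of all windows. A match is a description of letters, not a shown binding site. The 200 bases before the start of 6 members follow, 5′ to 3′ on the gene's strand, with the matched letters in capitals. Fos lies at chr12:85473690-85473889 on the plus strand and holds 2 cores, 129 and 66 bases before the start. Jun lies at chr4:95052223-95052422 on the minus strand, Junb at chr8:84978749-84978948 (minus) and Fosb at chr7:19310046-19310245 (minus). Dusp1 lies at chr17:26508473-26508672 on the minus strand and holds a second core 191 bases before the start beside its palindrome. Nr4a1 lies at chr15:101266646-101266845 on the plus strand and holds cores 69 and 40 bases before the start, both on the opposite strand and so printed as CGTCA, besides 2 more that lie upstream of the stretch shown.
Fos: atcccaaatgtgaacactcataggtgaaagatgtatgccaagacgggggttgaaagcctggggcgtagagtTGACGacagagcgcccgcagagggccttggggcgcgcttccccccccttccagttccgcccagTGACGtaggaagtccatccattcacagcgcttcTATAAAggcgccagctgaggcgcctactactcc
Jun: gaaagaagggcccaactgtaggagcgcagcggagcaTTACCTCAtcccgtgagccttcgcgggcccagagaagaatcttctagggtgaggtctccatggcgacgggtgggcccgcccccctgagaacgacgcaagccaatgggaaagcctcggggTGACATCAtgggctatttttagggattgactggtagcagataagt
Junb: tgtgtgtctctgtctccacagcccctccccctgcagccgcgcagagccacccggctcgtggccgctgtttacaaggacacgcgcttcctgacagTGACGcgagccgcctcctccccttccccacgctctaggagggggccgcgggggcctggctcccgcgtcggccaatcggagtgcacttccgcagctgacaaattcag
Fosb: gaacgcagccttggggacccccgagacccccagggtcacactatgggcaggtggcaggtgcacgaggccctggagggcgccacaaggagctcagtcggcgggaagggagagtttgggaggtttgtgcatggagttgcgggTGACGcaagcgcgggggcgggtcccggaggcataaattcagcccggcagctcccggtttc
Dusp1: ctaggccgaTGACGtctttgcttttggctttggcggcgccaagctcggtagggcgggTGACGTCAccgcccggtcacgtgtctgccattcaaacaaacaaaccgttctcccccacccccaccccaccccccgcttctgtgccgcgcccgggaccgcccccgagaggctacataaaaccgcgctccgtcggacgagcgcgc
Nr4a1: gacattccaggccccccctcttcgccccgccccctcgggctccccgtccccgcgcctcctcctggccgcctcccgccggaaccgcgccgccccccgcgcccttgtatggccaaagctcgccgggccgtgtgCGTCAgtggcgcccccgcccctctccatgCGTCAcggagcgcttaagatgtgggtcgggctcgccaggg

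All values below are processed spot intensities divided by the 75th percentile of the same array, here called relative levels. Differences are knockout minus wild type on the log2 scale. The error of a mean difference is the standard error from limma, with n = 2 knockout arrays against 1. All 12 probes were well above background on all 3 arrays, and 0 spots were saturated. Positions of probes follow the array files (build mm7).

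Of the 10 genes, 8 were higher on both knockout arrays than on wild type, 1 (Ier2) was lower on both by its brighter probe, and 1 (Atf3) was split. Fos and Jun had the largest differences, 2.05-fold and 1.87-fold, followed by Fosb and Dusp1. The background is large, since 38.0% of all 17707 genes tested were higher on both knockout arrays, and both differences share the wild type array. The median difference over the members was 0.42 on KO 4, 0.25 on KO 22 and 0.32 for their mean, against -0.04, -0.02 and -0.03 over all genes tested. With Benjamini-Hochberg adjustment over all genes, limma called 0 of the 10 at an adjusted p of 0.05, and 63 genes or 0.356% in all. At an unadjusted p under 0.05, 4 members were higher (Fos, Jun, Dusp1 and Egr1), where 13.2% of all genes were. With an intensity trend in the variance model limma called the same 4, where it called 8.31% of all genes as higher. Other settings called 5 members as higher with normexp background correction (7.73% of all genes), and Fos and Jun with the deposited series matrix (2.69%) and with genes above background on all 3 arrays (3.12%). Differences of at least 1.5-fold on both knockout arrays were found for Fos and Jun, and for 5.16% of all genes. In bulk RNA, a change in the share of cells that express a gene and a change in RNA per cell cannot be told apart.

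**Figure D1:**
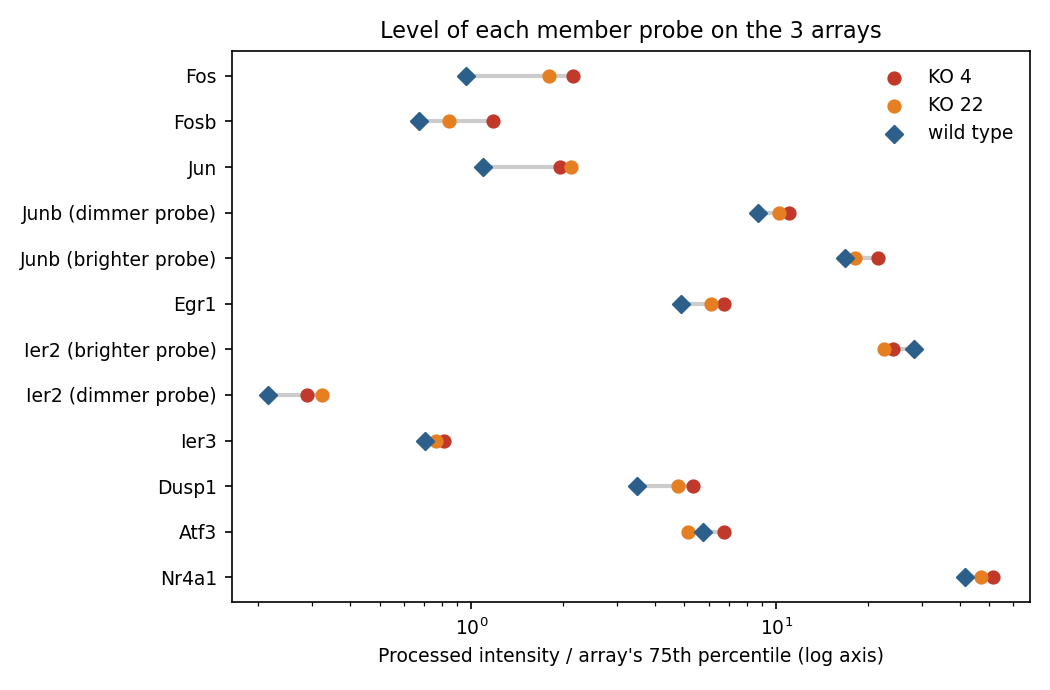
Relative level (processed intensity divided by the array's 75th percentile, log axis) of each of the 12 member probes on KO 4, KO 22 and wild type, 1 point an array. Wild type is the lowest point for all probes except those of Atf3 and the brighter probe of Ier2, and probes are not comparable with each other in level.

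**Figure D2:**
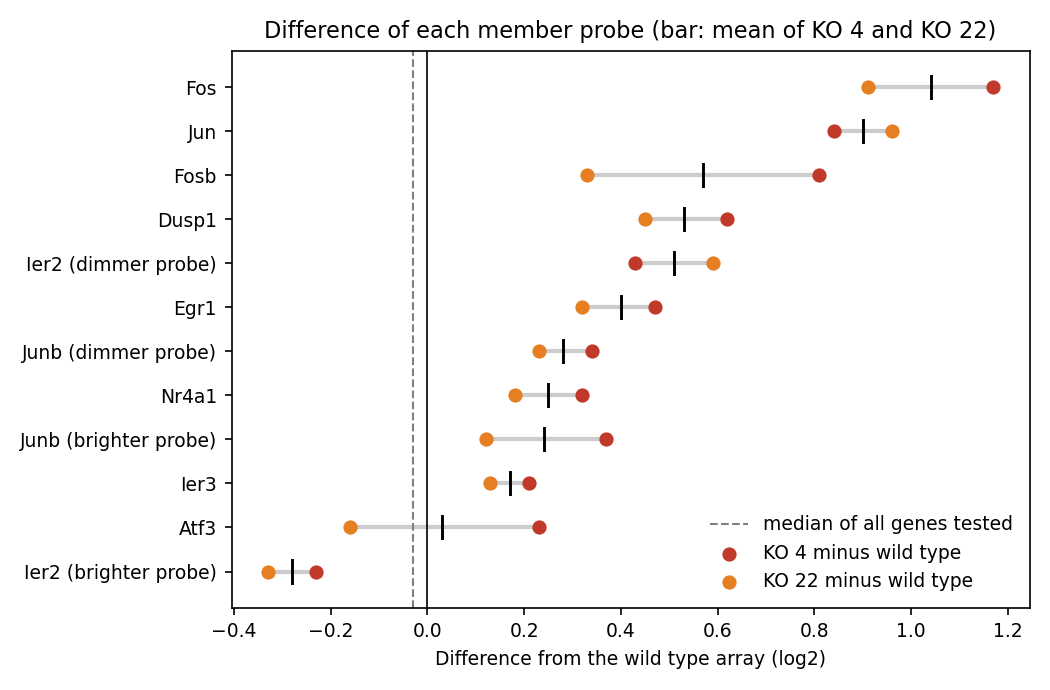
Difference of each member probe from the wild type array on the log2 scale, with a point for KO 4 and for KO 22 and a bar at their mean; the dashed line is the median of all genes tested, -0.03. Fos and Jun stand apart at means of 1.04 and 0.90, and the other probes lie between -0.28 and 0.57.

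Among the AP-1 subunits, Fos, the short-lived partner that forms a stable dimer only with a Jun protein, stood highest above wild type. Its probe (chr12:83478431-83478490) had an intensity of 1553 on KO 4, 1162 on KO 22 and 599 on wild type, or relative levels of 2.16, 1.80 and 0.961. Both knockout arrays lay above wild type, KO 4 further than KO 22. The differences were 1.17 and 0.91, with a mean of 1.04 ± 0.16, a 2.05-fold higher level. Over all genes tested, 401 (2.26%) had a larger mean difference. In limma the adjusted p was 0.105, and 0.0000103 to 0.184 over the alternatives.

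Jun, which can pair with itself or with a Fos protein, was the member on which the knockout arrays were closest in relation to the size of the difference. The intensity of its probe (chr4:94441779-94441838) was 1408, 1376 and 683 on KO 4, KO 22 and wild type. The relative levels of 1.96 and 2.13 on the knockout arrays lay above the 1.09 of wild type, and here KO 22 was the higher. The mean difference was 0.90 ± 0.11, or 1.87-fold, and 555 genes (3.13%) had a larger one. Its adjusted p in limma was 0.10, and 0.0000158 to 0.170 over the alternatives.

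Fos and Jun are the only members whose probe was printed 10 times on each array, so the measurement error within an array can be seen for them. The relative level of the Fos spots ran from 2.06 over a median of 2.17 to 2.25 on KO 4, from 1.66 over 1.80 to 1.97 on KO 22, and from 0.893 over 0.961 to 1.04 on wild type. No Fos spot of a knockout array reached down to the wild type spots, and KO 4 and KO 22 did not overlap each other either. The Jun spots ran from 1.88 over 1.95 to 2.03 on KO 4, from 2.05 over 2.12 to 2.29 on KO 22, and from 1.06 over 1.09 to 1.14 on wild type. On each knockout array 1 Jun spot with an outlier flag was left out of these ranges, which leaves 9. The SD of the log2 levels was 0.044 to 0.067 for Fos and 0.034 to 0.057 for Jun, near the median of 0.056 to 0.069 over the 173 repeated probes above background. Repeated spots share 1 RNA sample, so they show the error of the array and not the spread between cultures.

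**Figure D3:**
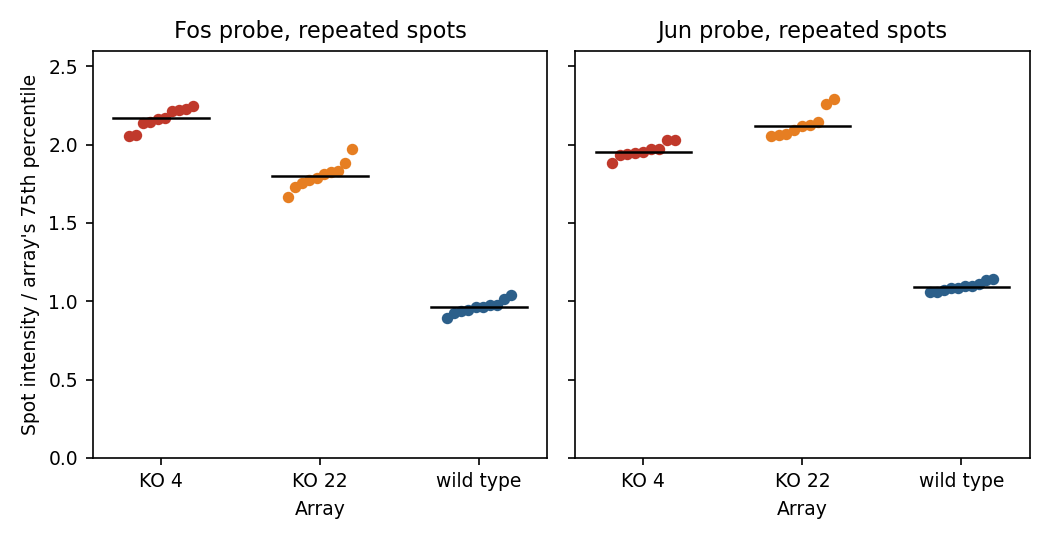
Relative level of each repeated spot of the Fos probe and the Jun probe on KO 4, KO 22 and wild type, with a bar at the median of each array and the axis starting at 0. The spots of both knockout arrays lie above all spots of wild type for both genes, between 1.66 and 2.29 against 0.893 to 1.14.

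Fosb, a further Fos family subunit, differed more between the knockout arrays. Its probe (chr7:16985502-16985561) had an intensity of 846, 546 and 420 on KO 4, KO 22 and wild type, and relative levels of 1.18, 0.846 and 0.674. The difference was 0.81 on KO 4 but 0.33 on KO 22, with a mean of 0.57 ± 0.25 or 1.48-fold. Its adjusted p in limma was 0.260, with 0.0144 to 0.431 over the alternatives. The SD between the knockout arrays, 0.34, was the largest of the members.

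Junb, a Jun family subunit, has 2 probes that overlap on chr8 (83563097-83563156 and 83563059-83563118). The brighter had relative levels of 21.6, 18.2 and 16.8 on KO 4, KO 22 and wild type, and the dimmer 11.0, 10.2 and 8.71. Wild type was the lowest array on both probes, and KO 4 the highest. The mean differences were 0.24 ± 0.15 and 0.28 ± 0.11, or 1.18-fold and 1.22-fold. With the brighter probe standing for the gene the adjusted p in limma was 0.374, with 0.183 to 0.527 over the alternatives, and 21.6% of genes had a larger difference.

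Atf3, a stress-induced bZIP protein that can pair with Jun proteins and often represses, showed no common direction. The intensity of its probe (chr1:190724174-190724233) was 4829 on KO 4, 3313 on KO 22 and 3590 on wild type. Relative to the array, wild type at 5.76 lay between KO 4 at 6.73 and KO 22 at 5.14. The differences of 0.23 and -0.16 averaged 0.03 ± 0.21, with an adjusted p of 0.940 in limma and 0.812 to 0.998 over the alternatives.

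Egr1 and Nr4a1 are immediate early transcription factors outside the bZIP family, a zinc finger protein and an orphan nuclear receptor. Egr1 had an intensity of 4852, 3927 and 3040 on KO 4, KO 22 and wild type, and relative levels of 6.76, 6.09 and 4.87. Both knockout arrays lay above wild type and within 0.15 of each other on the log2 scale. The mean difference was 0.40 ± 0.12 or 1.32-fold, with an adjusted p of 0.165 in limma and 0.0209 to 0.243 over the alternatives. Nr4a1 (chr15:101260484-101260543) had an intensity of 37025, 30246 and 25852, and relative levels of 51.6, 46.9 and 41.5. The order of the arrays was the same as for Egr1, with a smaller mean difference of 0.25 ± 0.11 or 1.19-fold. Its adjusted p in limma was 0.262, with 0.101 to 0.347 over the alternatives.

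Dusp1, the dual-specificity phosphatase that inactivates p38, JNK and ERK kinases, was the third member by gene-level p. Its probe (chr17:24690398-24690455) had an intensity of 3842 on KO 4, 3070 on KO 22 and 2174 on wild type. The relative levels were 5.35, 4.76 and 3.49, so that both knockout arrays stood clear of wild type by more than they differed from each other. The mean difference was 0.53 ± 0.12 or 1.45-fold, and 8.88% of genes had a larger one. Its adjusted p in limma was 0.132, with 0.00240 to 0.210 over the alternatives.

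Ier2 and Ier3 are short immediate early proteins, Ier2 a nuclear one and Ier3 a regulator of survival and ERK signalling. The 2 Ier2 probes went opposite ways. The brighter (chr8:83243584-83243618) had relative levels of 24.2 and 22.6 on KO 4 and KO 22, below the 28.4 of wild type, a mean difference of -0.28 ± 0.10. The dimmer (chr8:83243758-83243816) had 0.288 and 0.324 against 0.215, a mean difference of 0.51 ± 0.12 or 1.42-fold. Neither passed, with an adjusted p of 0.204 for the gene by its brighter probe and 0.133 for the dimmer one in the fit over probes, both from limma. The mean over both probes put Ier2 at 0.11, so its direction rests on the choice of probe, and the adjusted p ran from 0.0585 to 0.460 over the alternatives. Ier3 (chr17:33924245-33924304) had relative levels of 0.813, 0.766 and 0.703, a mean difference of 0.17 ± 0.10, with an adjusted p of 0.348 in limma and 0.268 to 0.392 over the alternatives.

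The members also differed between the knockout arrays. KO 4 was above KO 22 for 9 of the 10 genes, all but Jun, where 47.0% of all genes were. The median of KO 4 minus KO 22 was 0.16 over the members and -0.01 over all genes, and the range ran from -0.12 for Jun to 0.48 for Fosb. Markers of fibroblasts, the cell type of feeder layers, moved in the same direction between these arrays. Of 21 fibroblast markers tested, all above background on all 3 arrays, 20 were higher on KO 4 than on KO 22, with a median of 0.74. Their summed relative level was 55.4 on KO 4, 41.9 on KO 22 and 32.3 on wild type, or 28.1, 23.3 and 24.1 without Tagln, a smooth muscle actin-binding gene that ES cells can also express. Against wild type, 8 of the 21 were higher and 2 lower on both knockout arrays (38.0% and 45.5% of all genes). Col3a1, a defining fibroblast collagen, had relative levels of 0.514, 0.222 and 0.235. Col5a1, a further collagen of the list, stood above wild type on both, at 2.25, 1.56 and 1.04. The part of these cells in the members' levels was not tested. On KO 22 the fibroblast markers had a median difference from wild type of -0.08. The members on the same array ran from Jun at 0.96, Fos at 0.91, Dusp1 at 0.45, Fosb at 0.33, Egr1 at 0.32, Nr4a1 at 0.18, Ier3 at 0.13 and Junb at 0.12 down to Atf3 at -0.16 and Ier2 at -0.33.

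**Figure D4:**
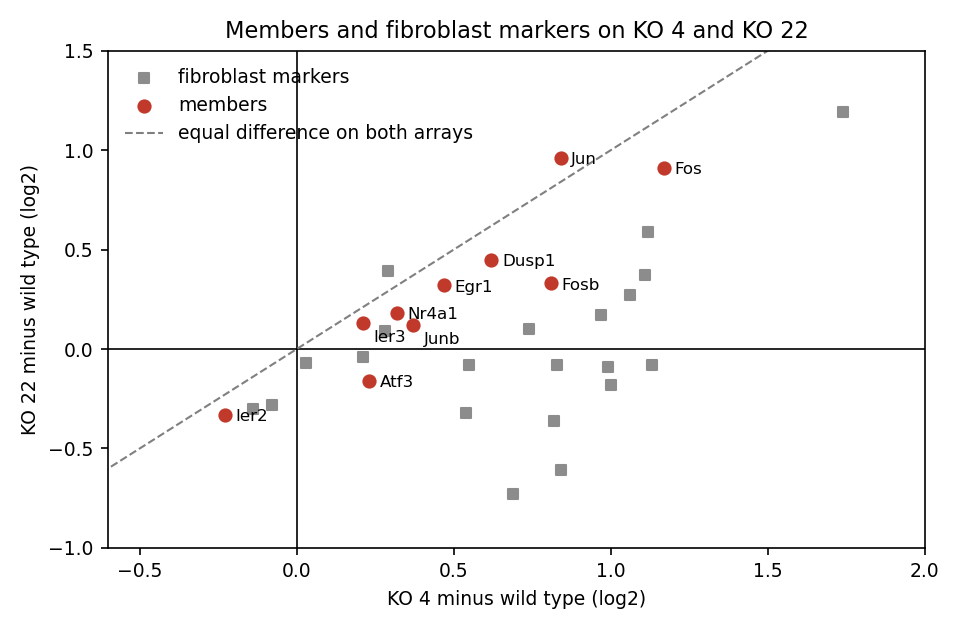
Difference from wild type on KO 4 (x axis) and KO 22 (y axis), both log2, for the 10 members (circles, named) and the 21 fibroblast markers (squares); the dashed line marks equal differences. Most fibroblast markers lie to the right near or below 0 on the y axis. Fos and Jun lie high on both axes, and the fibroblast marker Tagln, at 1.74 and 1.19, lies above them on both.

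Other subunits that can enter AP-1 or related bZIP dimers had a median slightly below 0. Of 12 tested, 4 stood above wild type on both knockout arrays and 7 below, where 38.0% and 45.5% of all genes were, with a median difference of -0.10. limma called 0 of the 12, and at an unadjusted p under 0.05 it had 2 higher and 1 lower, where 13.2% and 15.0% of all genes were. The lower gene is Batf2, whose probe was well above background on wild type only. It was tested only through wild type, the group in which it is high. Batf2 is also among the 7 below and enters the median. Fosl2, a Fos family subunit, had relative levels of 0.517, 0.500 and 0.388 on KO 4, KO 22 and wild type, a mean difference of 0.39 ± 0.09 with an adjusted p of 0.134 in limma. Fosl1, another Fos relative, stood at 0.33 ± 0.09. Jund, the Jun family subunit that is present without a signal, lay the other way at -0.28 ± 0.13, and Batf at -0.24 ± 0.19.

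Of 33 other immediate early genes tested, 21 stood above wild type on both knockout arrays and 7 below (38.0% and 45.5% of all genes), with a median of 0.19. limma called 0 of them, and at an unadjusted p under 0.05 it had 11 higher and 2 lower (13.2% and 15.0% of all genes). Nr4a2, the orphan nuclear receptor closest to Nr4a1, had relative levels of 0.218, 0.197 and 0.103 and a mean difference of 1.00 ± 0.11 (adjusted p = 0.0999 in limma). Ier5, a relative of Ier2 that acts on heat shock factor, stood at 0.92 ± 0.19 and Ptgs2, the inducible cyclooxygenase, at 0.86 ± 0.14. Npas4, an activity-induced neuronal factor, was on the other side at -0.92 ± 0.28, with -0.65 on KO 4 and -1.18 on KO 22. Ptgs2 and Npas4 were both dim, with relative levels of 0.0696, 0.0599 and 0.0356 for Ptgs2 and 0.0539, 0.0372 and 0.0846 for Npas4.

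The feedback genes of ERK and MAP kinase signalling had a median of 0.31, with 9 of 13 above wild type on both knockout arrays and 2 below (38.0% and 45.5% of all genes). Errfi1, an inhibitor of the EGF receptor, had relative levels of 5.99, 5.66 and 2.95, a mean difference of 0.98 ± 0.10 with an adjusted p of 0.0970 in limma. The phosphatases Dusp4 and Dusp14 stood at 0.76 ± 0.12 and 0.49 ± 0.10. limma called 1 of the 13, where it called 0.356% of all genes, and at an unadjusted p under 0.05 it had 5 higher and 2 lower (13.2% and 15.0% of all genes). The gene called is Spry4, an inhibitor of receptor signalling to ERK, with an adjusted p of 0.0346 in limma. It passed the filter on dim probes only through wild type, the group in which it is high, and so had to differ. Its probe had an intensity of 62.1 on wild type and was not well above background on KO 4 (10.2) or KO 22 (9.17). By these processed intensities it was at least 6.42-fold lower on the knockout arrays. The bound sets wild type against, on each knockout array, the higher of the probe's own value and the lowest signal well above background. The call rests on 1 spot per array, since the second Spry4 probe was not well above background on any array (5.56, 2.07 and 5.13). Of the 22 spots within 2 rows and columns of that spot, 1 was also well above background on wild type alone and at least 4-fold brighter there, and the part of such local brightness in the call was not tested. Without a filter on dim probes the adjusted p of Spry4 was 0.170 in limma, the highest over its alternatives, which began at 0.0000105. That lowest value came with normexp background correction, where the difference was only -0.90. It was -2.81 in the fit reported and -2.01 with the series matrix, so the size of the fall depends on the processing.

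Textbook AP-1 targets had a median of 0.24, or 0.67 on KO 4 and 0.16 on KO 22, and of 15 tested 9 stood above wild type on both knockout arrays and 3 below (38.0% and 45.5% of all genes). Mmp10 and Plau, both among the 9, were well above background on 1 and 2 arrays, in each case knockout arrays only. They passed the filter on dim probes only through the group in which they are high. Both also enter the medians. Hbegf, an EGF receptor ligand, had relative levels of 9.80, 8.89 and 4.96 and a mean difference of 0.91 ± 0.11 (adjusted p = 0.101 in limma). Mmp9, a matrix protease, stood at 0.63 ± 0.11. Cd44, a hyaluronan receptor, was uneven between the knockout arrays, at 1.09 on KO 4 and 0.23 on KO 22. limma called 0 of the 15, and 2 were higher at an unadjusted p under 0.05, a share near the 13.2% of all genes.

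Upstream kinases and the transcription factors they act on were evenly divided, with 8 of 19 higher on both knockout arrays, 8 lower (38.0% and 45.5% of all genes) and a median of -0.03. limma called 0 of them, and at an unadjusted p under 0.05 it had 2 higher and 3 lower, shares near the 13.2% and 15.0% of all genes. Mapkapk2, the kinase downstream of p38, stood at 0.59 ± 0.13 and Mrtfb, an SRF coactivator, at 0.53 ± 0.11. Rps6ka5, the kinase MSK1 that acts on CREB and histone H3, stood at -0.57 ± 0.14, and Mapk3, the ERK1 kinase, at -0.38 ± 0.09.

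Of 9 heat shock genes, which encode chaperones, 2 stood above wild type on both knockout arrays and 7 below (38.0% and 45.5% of all genes), with a median of -0.11. Hspb1 stood at 0.39 ± 0.09 and Hspa1a at 0.34 ± 0.13, while Hsph1 stood at -0.37 ± 0.09 and Hsp90ab1 at -0.21 ± 0.09. limma called 0 of the 9, and at an unadjusted p under 0.05 it had 1 higher and 1 lower (13.2% and 15.0% of all genes). All 10 genes of the integrated stress response list were lower on both knockout arrays, with a median of -0.38, where 45.5% of all genes were lower on both. With the series matrix values 9 of the 10 were. limma called 0 of the 10, and 4 were lower at an unadjusted p under 0.05 (15.0% of all genes) and with the intensity trend (10.7% of all genes). Chac1, a glutathione-degrading enzyme induced by ATF4, had relative levels of 2.45, 1.86 and 5.27 and a mean difference of -1.30 ± 0.22. Trib3, an ATF4-induced pseudokinase, stood at -0.85 ± 0.09, Atf4 itself at -0.46 ± 0.22 and Psat1, a serine synthesis enzyme, at -0.44 ± 0.12.

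**Figure D5:**
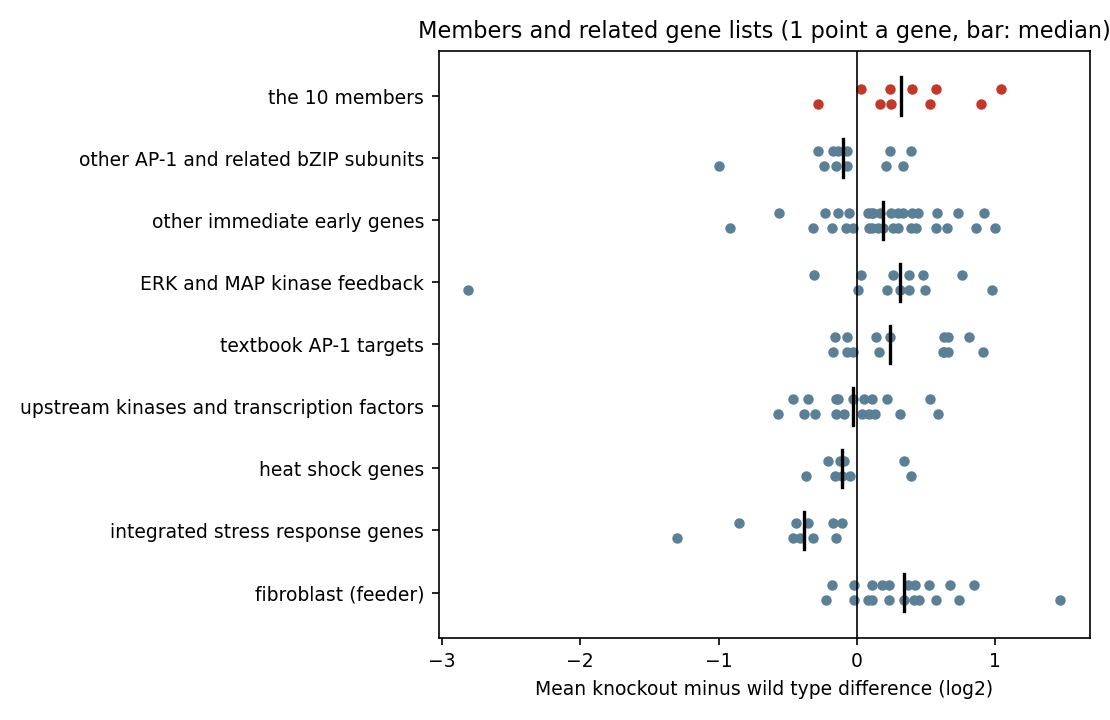
Mean knockout minus wild type difference (log2) of the 10 members and of 8 gene lists, 1 point a gene and a bar at the median. The medians of the members, the ERK and MAP kinase feedback genes and the fibroblast markers are 0.32, 0.31 and 0.34, and that of the integrated stress response genes is -0.38.

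On the arrays as a whole, 62.2% to 62.8% of the spots were well above background. The targeted gene Tet1 (probe at chr10:62332082-62332141) had relative levels of 0.298 and 0.303 on the knockout arrays against 1.16 on wild type, a mean difference of -1.94 ± 0.09 with an adjusted p of 0.0528 in limma. The labels do not name the deleted part, so this probe may or may not lie in it. ES cell markers were above background on all arrays for 8 of 8 genes tested, with a summed relative level of 618 on KO 4, 744 on KO 22 and 704 on wild type, or 150, 151 and 165 without Dppa5a, which holds most of that sum. Of the 8, 2 were higher and 5 lower on both knockout arrays (38.0% and 45.5% of all genes). The higher were Nanog at 0.25 ± 0.12 and Zfp42 at 0.13 ± 0.09. The lower ran from Pou5f1 and Esrrb, both at -0.47 ± 0.09, to Sox2 at -0.04 ± 0.09. All 7 trophoblast markers tested stood above wild type on KO 4 and KO 22 (38.0% of all genes), with sums of 224, 196 and 124, or 8.23, 8.28 and 6.73 without Krt8 and Krt18. All 8 primitive endoderm markers stood below it (45.5% of all genes), with sums of 1.22, 1.19 and 2.74. The part of such cells in the members' differences was not tested.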

How the data were processed

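Scanner files of 3 arrays hold spot intensity values that the authors deposited from Agilent Feature Extraction 10.1.1.1, background-subtracted and detrended within each array, per the file headers. The series matrix that the authors deposited, in log2, served as an alternative. limma appears in the submitters' processing notes, unversioned. Each array's 75th percentile (717.7, 644.9 and 623.7 on KO 4, KO 22 and wild type) was subtracted on the log2 scale, outlier-flagged spots were left out and repeated spots averaged. Of 41174 probes, 32719 (79.5%) matched the GRCm38.p6 RefSeq table, and the others kept the file's name. Probes well above background on at least 1 array were tested, and the brightest probe on average stood for its gene, giving 17707 genes. The fit with lmFit and eBayes of limma 3.58.1 (R 4.3.3, Benjamini-Hochberg over all genes, threshold 0.05) has 1 residual degree of freedom here, and 3.03 after moderation, with the lone wild type array assumed to vary like the knockout arrays. A standard error of 0.09 is the shared minimum that moderation sets, and 3 arrays limit the precision. The steps were tested on simulated data.

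Members and lists were chosen with earlier results of these data known. Named are Tet1, all members with every probe and, of each gene list other than the cell type markers, members that limma called or otherwise up to 4 with the largest mean difference among genes above background on all arrays and on 1 side of wild type on both knockout arrays. Of the AP-1 target list, 1 gene that the rule selects is not reported here. Further genes were chosen after their values were seen: the cell type markers given by name, Batf2, Mmp10, Plau and Spry4's second probe. Motif letters were matched to RefSeq promoters on both strands, and a position is that of the first printed base. Alternatives were quantile normalization, normexp background correction with an offset of 50 (leaving out 8 wild type spots dimmer than their background), the series matrix, stricter and no filters, the mean over probes, an intensity trend and each knockout array left out.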

Additional observations from a re-analysis of the deposited data

How the results depend on the processing

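The number of genes called by limma, 63 in the fit reported, was 3252 with normexp (1369 higher, 1883 lower), 969 with the series matrix (476 and 493), 928 with the filter on all 3 arrays (512 and 416), 3371 with an intensity trend (1472 and 1899) and 0 of 27654 without a filter, where 5968 had an unadjusted p under 0.05. With quantile normalization it was 52 (5 and 47). Members called as higher were 5 with normexp (Fos, Fosb, Jun, Egr1 and Dusp1), 4 with the trend (without Fosb) and 2, Fos and Jun, with the series matrix and with the stricter filter. No member was called with quantile normalization, no filter or the mean over probes. Of 70 tested values of single members under alternatives 55 kept direction and side of the threshold, 13 passed it and 2 reversed: Ier2 at 0.11 with the mean over probes and Atf3 at -0.0008 with normexp. Leaving out a knockout array leaves no residual degree of freedom and so no test. Of these 20 values 19 kept their sign and Atf3 reversed to -0.16 without KO 4 (0.23 without KO 22). The median over members stayed within 0.25 to 0.42 over the alternatives run. Members higher on both knockout arrays stayed at 8 to 9 over the alternatives that keep both. With 1 left out, members higher on the remaining knockout array were 8 without KO 4 and 9 without KO 22. Apart from the cases named, causes were not tested. Dim probes have the least precision, Spry4 among them. No paired analysis was possible because the groups share no replicate numbers.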
